A study of Homo sapiens with 15 samples.

Results

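The CC chemokines CCL2, CCL5, CCL7, CCL8, CCL20 and CCL26 were followed over 5 groups of IMR90, an established human fetal lung fibroblast line. The 6 genes were listed by name and looked up by Ensembl identifier among the 57736 genes of the deposited count table. A row was found for 5 of the 6; no identifier of the table matched CCL5, which was not analysed here. The groups, with 3 libraries each, were senescent cells given the inhibitor TRi-1 (written Tri-1 in the labels), senescent cells given DMSO as vehicle, senescent cells with the hairpin shTXNRD1, senescent cells under a control condition, and growing cells under a control condition. TXNRD1 encodes cytosolic thioredoxin reductase, the target of both the hairpin and TRi-1. The sources used here do not say how senescence was brought about, at what dose and for how long TRi-1 was given, which control the hairpin had, or whether replicates were separate cultures, so p-values measure the spread between these samples, which may be technical. The hairpin is a single condition of one cell line, and growing cells with DMSO, TRi-1 or the hairpin are not among the groups.

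Chemokines are small secreted proteins that guide leukocytes along a gradient, and the CC family is named for a pair of adjacent cysteines near the N-terminus of the mature protein. CCL2, CCL7 and CCL8 are monocyte chemoattractant proteins: CCL2 acts through the receptor CCR2, and CCL7 and CCL8 also bind others such as CCR1 and CCR3. CCL20 attracts dendritic cells and T cells that carry CCR6, and CCL26 (eotaxin-3) attracts eosinophils through CCR3. In fibroblasts, NF-kB activity downstream of interleukin-1 or tumour necrosis factor is a known inducer of CCL2 and CCL20, and these chemokines belong to the secretory phenotype of senescent cells.

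The paired cysteine codons that give the family its name, and the bases around them, show how near the 3 monocyte chemoattractant genes stand to each other. Stretches of the GENCODE v29 principal transcripts are printed 5′ to 3′ with those 2 codons in capitals, found as the first such pair at or after codon 20:
CCL2: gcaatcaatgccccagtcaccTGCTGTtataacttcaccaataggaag
CCL7: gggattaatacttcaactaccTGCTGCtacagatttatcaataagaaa
CCL8: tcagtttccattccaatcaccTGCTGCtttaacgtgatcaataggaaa
CCL20: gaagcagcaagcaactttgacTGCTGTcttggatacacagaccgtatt
CCL26: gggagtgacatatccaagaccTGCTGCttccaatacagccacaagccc
In CCL2, CCL7 and CCL8 the pair began at codon 34, within coding sequences of 297 bases each. It began at codon 32 of CCL20 and at codon 33 of CCL26. The coding sequences of CCL2 and CCL7 were identical at 79.1% of 297 aligned bases and those of CCL2 and CCL8 at 77.1%, against 57.3% of 274 aligned bases for CCL2 and CCL20. The longest run of bases that the transcripts of CCL2 and CCL7 shared was 23, and that of CCL2 and CCL8 was 22. These runs are shorter than the 75-base reads. How the counting treated reads that match several genes is not stated. CCL11 and CCL13, of the same cluster on chromosome 17, were identical to CCL2 at 80.1% and 77.2% of aligned coding bases.

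CCL2 was by far the most counted of the 5 genes. Levels are given as CPM after TMM scaling, a gene's count relative to the scaled library total, as mean ± SD with n = 3 libraries. CCL2 stood at 180.0, 175 and 189 CPM in the TRi-1 libraries and at 151, 157 and 157 CPM in the DMSO libraries. The hairpin libraries held 198, 200 and 204 CPM, the senescent control libraries 353, 361 and 395 CPM, and the growing libraries 54.0, 53.1 and 49.8 CPM. No neighbouring groups in that order of levels overlapped: senescent control was highest, then shTXNRD1, TRi-1, DMSO and growing control. In the deposited counts CCL2 ranged from 1060 to 8704 per library.

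CCL20 had another pattern, absent from growing counts and between 50.3 and 75.7 CPM in all senescent libraries. It stood at 50.3, 51.1 and 54.5 CPM with TRi-1 and at 65.2, 63.2 and 64.0 CPM with DMSO. The hairpin libraries held 54.4, 61.3 and 75.7 CPM and the senescent control libraries 55.6, 50.9 and 57.8 CPM. All 3 growing libraries had 0 counts of CCL20, which allows up to 0.0424 CPM over the group (3 counts). From DMSO at 64.1 ± 1.03 CPM down to TRi-1 at 52.0 ± 2.25 CPM, each senescent group overlapped the next in the order of means. The DMSO libraries nevertheless lay above all libraries of TRi-1 and of senescent control.

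**Figure D1:**
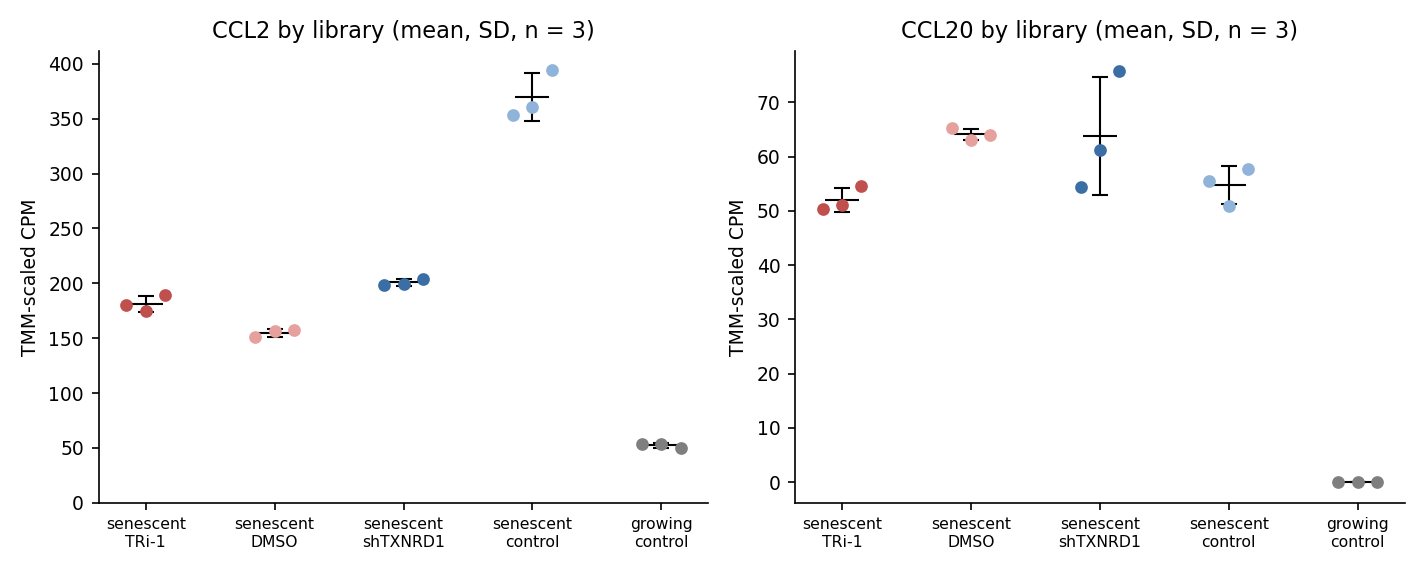
TMM-scaled CPM of CCL2 and CCL20 in each library (points), with the mean and SD of the 3 libraries of a group (bars). CCL2 is highest in senescent control, at 353 to 395 CPM, and lies between 151 and 204 CPM in the other senescent groups; CCL20 is at 0 in growing cells and between 50.3 and 75.7 CPM in all senescent libraries.

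The other members were near the limit of detection. CCL7 had 4, 6 and 10 counts with TRi-1 and 13, 12 and 20 with DMSO, then 0, 8 and 5 with the hairpin and 20, 21 and 18 in senescent control. Growing libraries held 0, 1 and 1 counts of CCL7. CCL8 had 0, 1 and 1 counts with TRi-1 and 2, 7 and 9 with DMSO, then 1, 3 and 1 with the hairpin and 11, 20 and 8 in senescent control, and none in growing cells. As TMM-scaled CPM both genes were highest in senescent control, without overlap with DMSO, although their raw counts overlapped. In the groups with TXNRD1 inhibited CCL7 did not exceed 10 counts and CCL8 did not exceed 3. CCL26 had 2 to 10 counts in every library, with means of 0.359 ± 0.0913 CPM (TRi-1), 0.198 ± 0.120 (DMSO), 0.218 ± 0.107 (shTXNRD1), 0.334 ± 0.0785 (senescent control) and 0.235 ± 0.0820 (growing), and each group overlapped the next in order of level.

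**Figure D2:**
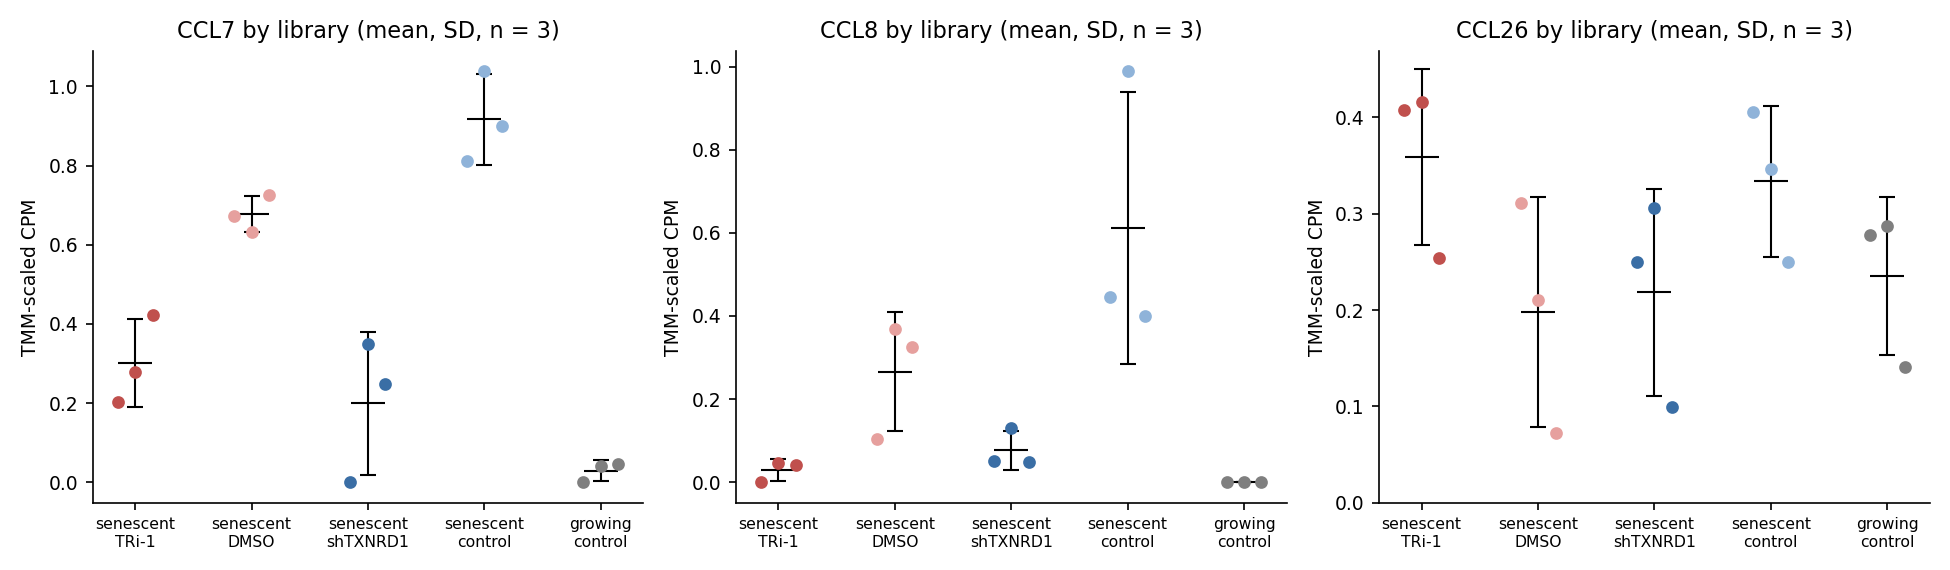
TMM-scaled CPM of CCL7, CCL8 and CCL26 in each library (points), with the mean and SD of the 3 libraries of a group (bars). CCL7 and CCL8 are highest in senescent control, at 0.916 and 0.612 CPM on average, and CCL26 overlaps between neighbouring groups throughout.

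Set against transcript length, the measured CC ligands summed to 311.5 ± 12.6 CPM per kilobase with TRi-1 and 291 ± 3.81 with DMSO, to 352 ± 17.7 with the hairpin and 570.3 ± 32.4 in senescent control, and to 71.4 ± 3.15 in growing cells. CCL2 made up 78.6% ± 0.388 of this sum with TRi-1 and 71.8% ± 0.785 with DMSO, 77.0% ± 2.62 with the hairpin and 87.4% ± 0.537 in senescent control, and 98.8% ± 0.216 in growing cells. The ratio of CCL20 to CCL2 per length, which no library scaling can move, was 0.259, 0.271 and 0.267 with TRi-1 and 0.401, 0.373 and 0.377 with DMSO. It was 0.254, 0.284 and 0.343 with the hairpin and 0.146, 0.131 and 0.136 in senescent control. Senescent control thus had the lowest ratio of the senescent groups, without overlap with any of them, and DMSO the highest. Of 26 CC ligand genes listed, 16 were matched to a row by identifier. The other 10, CCL5 among them, were not analysed here, so the sum and the shares cover the matched ligands alone. CCL1, CCL17, CCL19 and CCL21 were at 0 counts in all 15 libraries. Beyond the members, CCL28 summed to 259 counts over all libraries and was called in no comparison, CCL22 to 101, CCL13 to 28, CCL24 to 17, CCL11 to 16, CCL27 to 15 and CCL25 to 2.

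**Figure D3:**
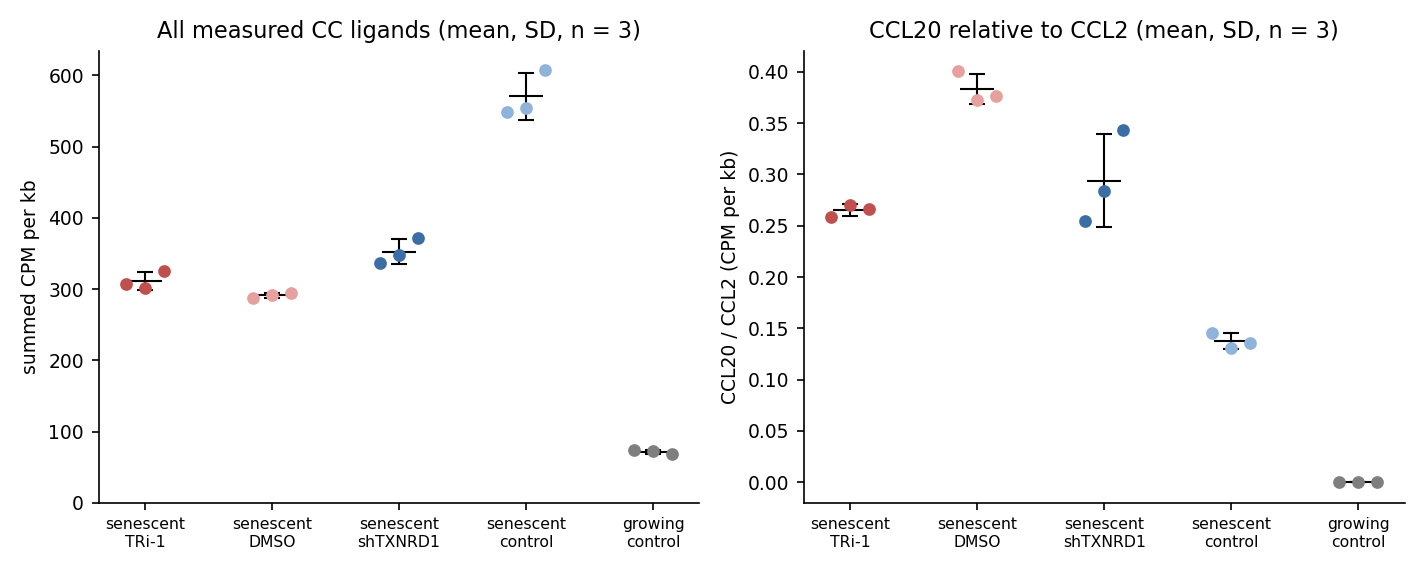
Left, summed CPM per kilobase of the measured CC ligands; right, the ratio of CCL20 to CCL2 per length, in each library (points) with the mean and SD of the 3 libraries of a group (bars). The sum is highest in senescent control, at 570.3, and the ratio is lowest there among senescent groups, at 0.131 to 0.146 against 0.254 to 0.401 in the others.

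The library totals ran from 18033076 to 28909046 counts (median 21156213). TXNRD1 itself averaged 22.6 ± 2.30 CPM with the hairpin, against 515 ± 12.02 CPM in senescent control, and 431 ± 11.6 CPM with TRi-1, against 408 ± 19.3 CPM with DMSO. All 10 fibroblast markers listed had counts in every group, summing to 12250 to 22090 CPM per library. With the hairpin 3 of the 10 were called higher and 6 lower, where 25.8% and 24.8% of all genes tested were. With TRi-1 1 was called higher and 6 lower, where 7.64% and 12.2% of all genes were. With senescence 3 were called higher and 4 lower, where 27.4% and 29.5% were, and with DMSO 1 higher and 3 lower, where 8.36% and 7.87% were. Of the leukocyte markers, CD3E was at 0 counts in all groups and CD68 held most of the sum. In these bulk samples, fewer cells that express a gene and less of its RNA per cell cannot be told apart.

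Senescent control cells were set against growing cells to see which CC chemokines came with senescence. CCL2 averaged 369.5 ± 22.1 CPM in senescent control, against 52.3 ± 2.20 CPM in growing cells, a 7.06-fold rise (log2 2.82 ± 0.06 SE, adjusted p = 4.11e-14, edgeR quasi-likelihood test with Benjamini-Hochberg adjustment). CCL20 averaged 54.7 ± 3.49 CPM in senescent control, at least 1292-fold above the floor of 3 counts over the growing libraries (adjusted p = 1.66e-12). CCL7 summed to 59 counts in senescent control, against 2 counts in growing cells, a ratio of 32.2 with an exact 95% counting interval of 8.53 to 272 (adjusted p = 5.92e-05). Among all 15994 genes tested 56.9% were called, 27.4% higher and 29.5% lower, and CCL7 and CCL20 entered the test through their senescent libraries alone, so nothing is read from the number of members called.

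The filter on low counts removed CCL8 and CCL26 from the test. CCL8 averaged 0.612 ± 0.327 CPM in senescent control, at least 14.4-fold above the same floor, and the exact permutation test on its 3 against 3 libraries gave p = 0.1, the smallest this design allows. Kept despite the filter, a choice made after its counts were seen, CCL8 was called higher (adjusted p = 0.000142). CCL26 summed to 22 counts in senescent control, against 17 in growing cells, a ratio of 1.41 with a counting interval of 0.716 to 2.83, and its libraries overlapped (exact permutation p = 0.3).

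The hairpin comparison asked what shTXNRD1 did to these genes in senescent cells. CCL2 averaged 201 ± 3.21 CPM with the hairpin, against 369.5 ± 22.1 CPM in senescent control, 1.84-fold lower (log2 -0.88 ± 0.06 SE, adjusted p = 1.65e-08, edgeR). It remained above the growing level of 52.3 CPM, without overlap. CCL7 fell to 13 counts over the hairpin libraries, against 59 in senescent control (log2 -2.13 ± 0.52 SE, adjusted p = 0.00361). CCL20 averaged 63.8 ± 10.9 CPM with the hairpin, against 54.7 ± 3.49 CPM in senescent control, and its libraries overlapped (log2 0.22 ± 0.10 SE, adjusted p = 0.0938). With upper-quartile scaling CCL20 was called higher (log2 0.27, adjusted p = 0.0459). It was also called higher without shTXNRD1 replicate 1 (log2 0.31, adjusted p = 0.0112). That library was the lowest of its group, so leaving it out raises the mean by itself, and nothing is read from that call. Thus 2 of the 3 tested members were called lower and none higher, where 50.7% of all genes tested were called, 24.8% lower and 25.8% higher. CCL7 passed the filter through the senescent control and DMSO libraries, where it was high, so nothing is read from that count.

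CCL8 summed to 5 counts with the hairpin, against 39 in senescent control, a ratio of 0.132 with a counting interval of 0.0406 to 0.335. Its libraries did not overlap (exact permutation p = 0.1), and kept despite the filter it was called lower (adjusted p = 0.00293). For CCL26 the ratio was 0.655 with a counting interval of 0.310 to 1.34.

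The inhibitor comparison set TRi-1 against its vehicle, DMSO. CCL2 was higher with TRi-1, at 181 ± 7.36 CPM against 155 ± 3.65 CPM with DMSO, a 1.17-fold difference (log2 0.23 ± 0.06 SE, adjusted p = 0.0107, edgeR). That call was lost without DMSO replicate 1 (adjusted p = 0.0503) and with no filter on low counts (adjusted p = 0.0636). CCL20 averaged 52.0 ± 2.25 CPM with TRi-1, against 64.1 ± 1.03 CPM with DMSO; the libraries did not overlap, but the difference missed the threshold (log2 -0.30 ± 0.10 SE, adjusted p = 0.0581). It was called lower with the compared groups alone (0.00119), limma-voom (0.0352), upper-quartile scaling (0.0417), no filter (0.0456) and a filter at 5 CPM (0.0332), as adjusted p. CCL7 summed to 20 counts with TRi-1, against 45 with DMSO (log2 -1.14 ± 0.50 SE, adjusted p = 0.133), and was called lower with the compared groups alone (adjusted p = 0.0288). In that fit CCL7 passed the filter through the DMSO libraries, where it was high. Called higher was thus 1 of the 3 tested members, and none lower, where 19.9% of all genes tested were called, 7.64% higher and 12.2% lower.

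CCL8 summed to 2 counts with TRi-1, against 18 with DMSO, a ratio of 0.113 with a counting interval of 0.0127 to 0.471. Its libraries did not overlap (exact permutation p = 0.1). Kept despite the filter it was called lower (adjusted p = 0.0341), a call lost without DMSO replicate 2 (0.0938) or 3 (0.102) and without TRi-1 replicate 1 (0.103), 2 (0.0776) or 3 (0.0851). CCL26 summed to 23 counts with TRi-1, against 12 with DMSO, a ratio of 1.94 with a counting interval of 0.928 to 4.29.

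DMSO cells were also set against senescent control cells. CCL2 had the smallest p of all 15994 genes tested in this comparison. It averaged 155 ± 3.65 CPM with DMSO, against 369.5 ± 22.1 CPM in senescent control, 2.38-fold lower (log2 -1.25 ± 0.06 SE, adjusted p = 5.4e-08, edgeR). CCL20 averaged 64.1 ± 1.03 CPM with DMSO, against 54.7 ± 3.49 CPM in senescent control, without overlap but short of the threshold (log2 0.23 ± 0.10 SE, adjusted p = 0.165; with the compared groups alone 0.0102). CCL7 summed to 45 counts with DMSO, against 59 in senescent control (log2 -0.42 ± 0.43 SE, adjusted p = 0.592), and CCL8 to 18, against 39 (ratio 0.455, counting interval 0.245 to 0.814). For CCL26, 12 counts with DMSO stood against 22 in senescent control. Of the 3 tested members 1 was called lower and none higher, where 16.2% of all genes tested were called, 7.87% lower and 8.36% higher. The senescence, hairpin and DMSO comparisons share the senescent control libraries, and the TRi-1 and DMSO comparisons share the DMSO libraries. Effects of DMSO and any other difference between these 2 control conditions cannot be told apart.

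The effects of the hairpin and of TRi-1, each relative to its own control, were compared as a difference in the same model. For CCL2 the hairpin effect minus the TRi-1 effect was -1.11 ± 0.08 SE on the log2 scale (adjusted p = 1.38e-07, edgeR), with a lower level under the hairpin and a higher one under TRi-1. For CCL20 the difference was 0.52 ± 0.15 SE (adjusted p = 0.0126), with effects of 0.22 for the hairpin and -0.30 for TRi-1. For CCL7 it was -0.99 ± 0.75 SE (adjusted p = 0.306). Both a positive and a negative difference were called, 1 member each of 3 tested, where 41.7% of all genes tested were called, 22.1% positive and 19.5% negative. As levels, CCL2 stood at 201 ± 3.21 CPM with the hairpin and at 181 ± 7.36 CPM with TRi-1, without overlap. Their controls stood at 369.5 ± 22.1 CPM (senescent control) and 155 ± 3.65 CPM (DMSO). Each difference of effects thus includes any gap between the 2 controls.

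**Figure D4:**
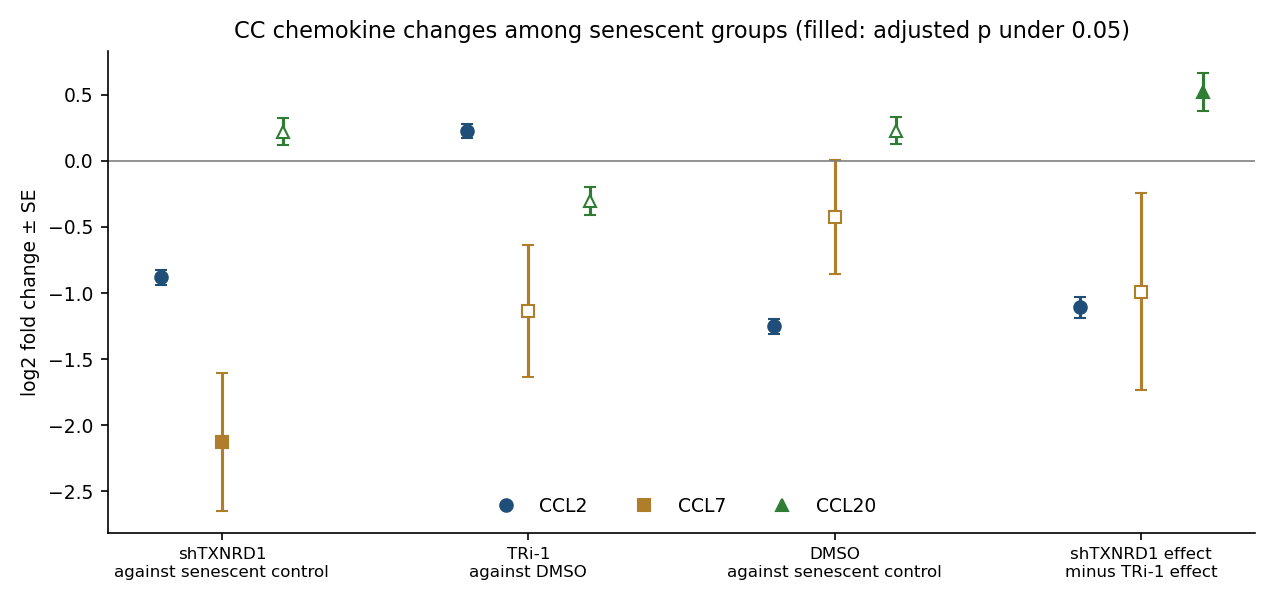
Log2 fold changes with SE (bars) of CCL2, CCL7 and CCL20 in the comparisons among senescent groups; filled symbols have an adjusted p under 0.05. CCL2 is at -0.88 with the hairpin, 0.23 with TRi-1 and -1.25 with DMSO, and CCL20 lies between -0.30 and 0.23 in those 3 comparisons.

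Markers of other cell types differed between groups, some in the direction of CCL2 and some against it. The 7 endothelial markers with a row summed to 51.8 to 55.2 CPM with TRi-1 and 85.5 to 91.4 with DMSO, to 105 to 133 with the hairpin and 160 to 172 in senescent control, and to 109 to 134 in growing cells, nearly all of it TEK, the angiopoietin receptor. TEK changed by 0.42 ± 0.09 SE with senescence, -0.56 ± 0.09 with the hairpin, -0.75 ± 0.09 with TRi-1 and -0.92 ± 0.09 with DMSO, on the log2 scale, all called. Others of the list moved in both directions with the hairpin. KDR, a VEGF receptor, averaged 8.24 ± 0.727 CPM with the hairpin, against 0.471 ± 0.111 CPM in senescent control (adjusted p = 1.58e-08). CLDN5, a tight junction protein, averaged 0.0312 ± 0.0272 CPM with the hairpin, against 1.498 ± 0.691 CPM in senescent control (adjusted p = 3.22e-05). CDH5, ERG and EMCN were at 0 counts in growing cells, EMCN also with TRi-1 and in senescent control, and ERG also with the hairpin. The 10 leukocyte markers summed to 92.3 to 93.9 CPM with TRi-1 and 57.4 to 75.0 with DMSO, to 19.1 to 39.0 with the hairpin and 72.8 to 81.4 in senescent control, and to 15.7 to 26.1 in growing cells. CD68, a lysosomal protein of macrophages that fibroblasts also express, averaged 27.65 ± 9.66 CPM with the hairpin, against 75.2 ± 4.09 CPM in senescent control. CSF1R, a macrophage receptor, averaged 0.0811 ± 0.0597 CPM with the hairpin, against 0.829 ± 0.2496 CPM in senescent control. The 8 epithelial markers summed to between 45.8 and 82.8 CPM in all libraries, and EPCAM, an epithelial adhesion protein, averaged 3.63 ± 0.506 CPM with the hairpin, against 1.08 ± 0.337 CPM in senescent control (adjusted p = 5.67e-05). The part of these cell types in the chemokine results was not tested.

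The receptors of these ligands were scarce. CCR2, the main CCL2 receptor, had 1 count over all 15 libraries, in senescent control, CCR6, the CCL20 receptor, had none, and CCR3, the CCL26 receptor, had at most 3 in a library. Of 15 CC and related receptors 5 were tested, and all 5 were called higher in senescent control than in growing cells, where 27.4% of all genes tested were called higher. With 0 to 5 counts in each growing library, these 5 passed the filter through senescent libraries, so nothing is read from that count. They were CCR1, CCR7, CCR10, the decoy receptor ACKR4 and the chemerin-binding CCRL2. CCR1, a receptor of CCL7, averaged 1.28 ± 0.199 CPM in senescent control, against 0.0534 ± 0.0604 CPM in growing cells (adjusted p = 1.09e-06).

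With the hairpin 3 of the 5 receptors were called lower, CCR7 (adjusted p = 0.0357), ACKR4 (0.0392) and CCR10 (0.0208), and none higher, where 24.8% of all genes tested were called lower and 25.8% higher. ACKR4 passed the filter through the senescent control libraries, where it was high. CCR1 stood at 1.37 ± 0.207 CPM, against 1.28 ± 0.199 CPM in senescent control (adjusted p = 0.764). With TRi-1 CCR1 fell to 0.554 ± 0.120 CPM, against 1.12 ± 0.116 CPM with DMSO (adjusted p = 0.0351), and CCR7, the lymph node homing receptor, to 0.519 ± 0.0674 CPM, against 1.35 ± 0.272 CPM (adjusted p = 0.0185). CCR7 was higher with DMSO than in senescent control, where it averaged 0.574 ± 0.199 CPM (adjusted p = 0.0365). The hairpin and TRi-1 effects differed for CCR1 (1.11 ± 0.42 SE, adjusted p = 0.0445) and CCRL2 (-1.14 ± 0.32 SE, adjusted p = 0.0102).

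**Figure D5:**
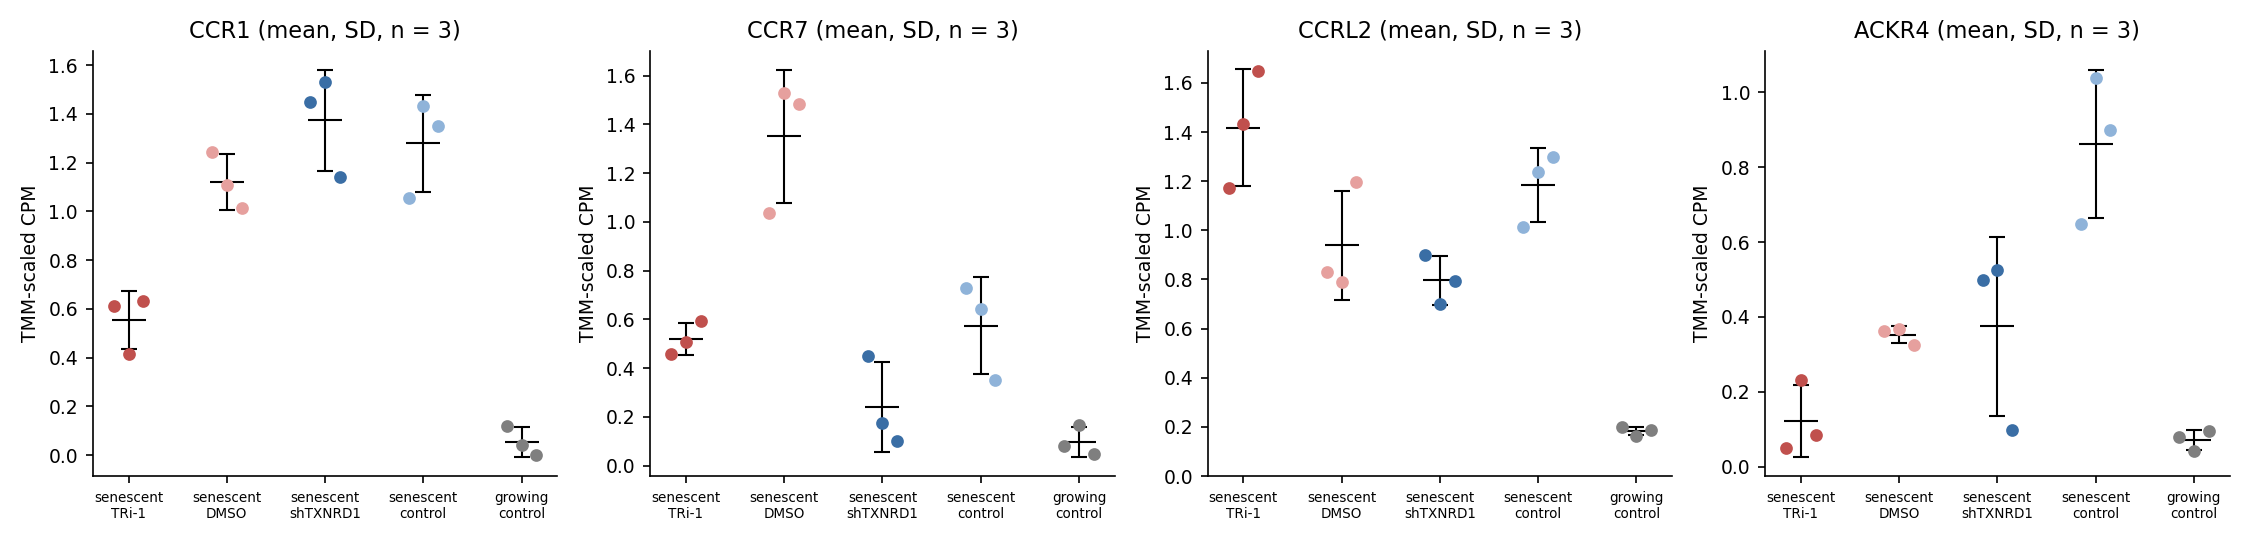
TMM-scaled CPM of the receptors CCR1, CCR7, CCRL2 and ACKR4 in each library (points), with the mean and SD of the 3 libraries of a group (bars). CCR1 averages 0.554 CPM with TRi-1 and 1.12 CPM with DMSO, 1.37 CPM with the hairpin and 1.28 CPM in senescent control, and 0.0534 CPM in growing cells.

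Of 9 cytokines tested among those known to induce CC chemokines, 7 were called higher with senescence and 1 lower, where 27.4% of all genes tested were called higher and 29.5% lower. Some of these, such as IL1A and IL1B at 0.0558 ± 0.0206 and 0.139 ± 0.0391 CPM in growing cells, passed the filter through senescent libraries, so nothing is read from that count. IL1B averaged 1445 ± 123 CPM with the hairpin, against 2733 ± 133 CPM in senescent control, and 2311 ± 45.8 CPM with TRi-1, against 2798 ± 23.6 CPM with DMSO; both falls were called (adjusted p = 4.26e-08 and 0.00753). With DMSO 3 of the 9 were called higher and 1 lower, where 8.36% of all genes tested were called higher and 7.87% lower. The 1 lower was IL6, at 515 ± 6.54 CPM against 693 ± 25.3 CPM in senescent control (adjusted p = 4.21e-05). The 3 higher were IL1A (log2 0.27, adjusted p = 0.0313) and, named after their values were seen, IL33 (1.63, adjusted p = 0.000167) and TSLP (0.62, adjusted p = 0.00252), and IL1B stood at 0.03 (adjusted p = 0.802). With the hairpin 6 of the 9 were lower and 1 higher, and with TRi-1 5 were lower, with medians of -1.12 and -0.355, where 24.8% and 12.2% of all genes tested were called lower. Of 18 receptors for such cytokines, 7 rose and 6 fell with senescence and 6 rose and 5 fell with the hairpin, with medians of 0.11 and 0.18, where 27.4% of all genes tested were called higher and 29.5% lower with senescence, and 25.8% higher and 24.8% lower with the hairpin. TLR3, the sensor of double-stranded RNA, fell to 0.562 ± 0.277 CPM in senescent control, against 9.76 ± 0.782 CPM in growing cells, and IL13RA2, a receptor of interleukin-13, rose to 21.2 ± 2.19 CPM, against 0.248 ± 0.184 CPM.

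Among 14 NF-kB subunits and regulators, 11 were higher and 1 lower with senescence, 1 higher and 8 lower with the hairpin, 3 higher and 1 lower with TRi-1, and 1 higher and 3 lower with DMSO. Of all genes tested, 27.4% were called higher and 29.5% lower with senescence, 25.8% higher and 24.8% lower with the hairpin, 7.64% and 12.2% with TRi-1, and 8.36% and 7.87% with DMSO. TNFAIP3 (A20), a feedback inhibitor of NF-kB, averaged 113 ± 6.98 CPM with the hairpin, against 120 ± 1.93 CPM in senescent control (adjusted p = 0.316), and 54.6 ± 1.33 CPM with TRi-1, against 62.4 ± 1.11 CPM with DMSO (adjusted p = 0.0547). TNFAIP3 was also lower with DMSO than in senescent control (log2 -0.94 ± 0.07 SE, adjusted p = 7.31e-07, edgeR). NFKB2, NFKBIZ and TNIP1 were not called in that comparison (adjusted p = 0.292, 0.0764 and 0.192). NFKBIA, the inhibitor IkB-alpha, fell to 74.9 ± 2.66 CPM with the hairpin, against 117 ± 2.17 CPM in senescent control, and was higher with TRi-1, at 115 ± 1.60 CPM against 99.5 ± 2.08 CPM with DMSO (adjusted p = 1.23e-07 and 0.00935). NFKBIA was also lower with DMSO than in senescent control (log2 -0.23, adjusted p = 0.00513) and higher in senescent control than in growing cells (log2 1.05). The median log2 change of the 14 genes was 0.83 with senescence, -0.45 with the hairpin, 0.17 with TRi-1 and -0.20 with DMSO, where medians over all genes tested lay between -0.03 and 0.03 in these comparisons.

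Other transcription factors known at chemokine genes were higher in 8 and lower in 3 of 15 with senescence, in 2 and 6 with the hairpin, in 3 and 5 with TRi-1 and in 1 and 4 with DMSO. Their median log2 change was 0.405 with senescence and -0.27 with the hairpin. With the hairpin 8 of the 15 were called in either direction, where 50.7% of all genes tested were, and with senescence 11, where 56.9% were. For TRi-1, 7.64% of all genes tested were called higher and 12.2% lower, and for DMSO 8.36% and 7.87%. IRF1, an interferon regulatory factor, fell to 14.2 ± 0.602 CPM with the hairpin, against 66.35 ± 2.96 CPM in senescent control, and was higher with TRi-1, at 61.7 ± 2.27 CPM against 52.2 ± 0.958 CPM with DMSO (adjusted p = 3.69e-11 and 0.0287). FOS, a subunit of AP-1, fell to 1.67 ± 0.156 CPM with the hairpin, against 5.11 ± 0.564 CPM in senescent control, and to 3.35 ± 0.405 CPM with TRi-1, against 7.89 ± 0.863 CPM with DMSO (adjusted p = 8.06e-07 and 2.87e-05). FOS was higher with DMSO than in senescent control (log2 0.63, adjusted p = 0.00536, edgeR). The AP-1 genes FOSL1, JUN and JUNB, named after their values were seen, did not all follow FOS. FOSL1 rose with TRi-1 (log2 0.86, adjusted p = 0.000311) and was not called with the hairpin (0.443). JUN was called in neither (0.143 with the hairpin, 0.142 with TRi-1). JUNB fell with the hairpin (0.0023) and was not called with TRi-1 (0.712).

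RNA-binding proteins that set the life of chemokine mRNA were called lower with senescence in 5 of 8 and higher in 2, with a median log2 change of -0.38, where 29.5% of all genes tested were called lower and 27.4% higher. ZC3H12A (regnase-1), an endonuclease first named for its induction by CCL2, rose to 98.4 ± 12 CPM in senescent control, against 4.05 ± 1.55 CPM in growing cells, and fell to 33.4 ± 14.6 CPM with the hairpin (adjusted p = 1.46e-07 and 0.000574). ZFP36L1, which marks AU-rich mRNA for decay, fell to 78.7 ± 3.93 CPM with the hairpin, against 205 ± 8.65 CPM in senescent control (adjusted p = 4.96e-10). With senescence ZFP36L1 had risen (log2 0.75, adjusted p = 1.09e-07, edgeR). Its relatives ZFP36 and ZFP36L2 went the other way. With the hairpin they rose (log2 0.34 and 0.33, adjusted p = 0.00376 and 0.016), and with senescence they fell (log2 -0.94 and -1.41, adjusted p = 2.82e-07 and 2.94e-08). With the hairpin 3 of the 8 were called higher and 3 lower, where 50.7% of all genes tested were called. With TRi-1 1 was called higher and 1 lower, where 7.64% and 12.2% of all genes tested were. With DMSO none was called, where 16.2% of all genes tested were.

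Proteases known to cleave chemokines rose in 8 of 9 with senescence, and with the hairpin 6 fell and 1 rose, with median log2 changes of 1.38 and -0.44, where 27.4% of all genes tested were called higher with senescence and 24.8% lower with the hairpin. MMP1 and MMP3, which cut the N-terminus of CCL2 and CCL8, averaged 7047 ± 294 and 5708 ± 286 CPM in senescent control, against 34.3 ± 2.20 and 46.8 ± 4.25 CPM in growing cells. MMP3 fell to 3104 ± 367 CPM with the hairpin (adjusted p = 8.34e-07), and was not called with TRi-1 (log2 -0.10, adjusted p = 0.451). Among 7 tested genes of cytosolic DNA sensing, 3 rose and 3 fell with senescence and 2 rose and 3 fell with the hairpin, with medians of -0.15 and -0.13, where 56.9% and 50.7% of all genes tested were called. STING1, the adaptor of this pathway, was higher in senescent control than in growing cells (log2 1.36, adjusted p = 6.54e-08). It fell to 12.1 ± 1.98 CPM with the hairpin, against 56.55 ± 2.66 CPM in senescent control (adjusted p = 1.26e-09), and to 68.7 ± 2.79 CPM with TRi-1, against 86.4 ± 5.62 CPM with DMSO (adjusted p = 0.0332). It was higher with DMSO, at 86.4 ± 5.62 CPM, against 56.55 ± 2.66 CPM in senescent control (adjusted p = 0.000957).

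The genes whose levels followed each member most closely over the 12 senescent libraries were named by Pearson r of log2 CPM, as a description of libraries that share groups. For CCL2 these were BMPER, a secreted binder of bone morphogenetic proteins (r = 0.981), LHFPL6 (0.981) and PLAGL1, a zinc finger factor (0.970). For CCL20 they were SDHD, a subunit of respiratory complex II (0.970), the importin IPO9 (0.963) and the nuclear pore gene NUP160 (0.959). For CCL7 they were the lysophosphatidic acid receptor LPAR3 (0.935), TTC17 (0.929) and ARHGEF6 (0.926). Between the members r was 0.386 for CCL2 and CCL7 and -0.305 for CCL2 and CCL20.

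Promoter sequences of CCL20 and CCL7 are shown because these genes differed under the hairpin, where CCL7 was called lower and CCL20 was not called. The 250 bases before the RefSeq start (GRCh38.p14) are printed 5′ to 3′ on the gene's strand, with motif matches in capitals. Entries were found for 4 of the members, CCL7, CCL8, CCL20 and CCL26, and none for CCL2 or CCL5.
CCL20, chr2:227813592-227813841, plus strand: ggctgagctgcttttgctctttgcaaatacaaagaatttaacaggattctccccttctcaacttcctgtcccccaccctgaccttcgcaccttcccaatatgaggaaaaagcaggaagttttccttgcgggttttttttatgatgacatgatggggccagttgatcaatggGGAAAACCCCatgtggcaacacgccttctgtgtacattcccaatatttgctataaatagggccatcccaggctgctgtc
CCL7, chr17:34269971-34270220, plus strand: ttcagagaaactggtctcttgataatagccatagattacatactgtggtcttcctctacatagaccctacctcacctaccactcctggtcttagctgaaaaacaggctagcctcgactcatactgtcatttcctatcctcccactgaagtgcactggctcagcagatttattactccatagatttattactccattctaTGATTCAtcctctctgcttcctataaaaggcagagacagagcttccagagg
Both strands were searched for the kappaB consensus GGGRNNYYCC, bound by NF-kB, and for TGANTCA, bound by AP-1. Here R is A or G, Y is C or T and N is any base. CCL20 held 1 kappaB match from 79 to 70 bases before the start. It lies on the opposite strand and reads GGAAAACCCC on the gene's strand. CCL7 held 1 AP-1 match, TGATTCA, from 51 to 45 bases before its start. The windows of CCL8 and CCL26 held no match to either, although CCL8 was also lower with the hairpin (5 counts against 39). Of 35116 promoters of the same length, 9.96% held the kappaB consensus and 6.57% the AP-1 motif, and a match is a description of letters. Whether a match bears on any change under the hairpin was not tested.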

How the data were processed

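Total RNA of IMR90 cells was sequenced in paired reads of 75 bases, per the labels' protocols. The deposited table holds whole-number counts per Ensembl gene and library, without scaling, as the differing column totals show. RSEM 1.2.3, DESeq2 and the builds hg19 and mm10 are named in the submitters' processing notes without roles; aligner, annotation, strand and any rounding of estimates are not stated there or in the labels. Of 57736 genes, 52301 received a symbol by identifier. Counts were scaled by TMM and tested by quasi-likelihood F test (edgeR 4.0.16, R 4.3.3), robust, in 1 model of all 15 libraries with a coefficient per group, after filterByExpr, which left 15994 genes. P-values were adjusted by Benjamini-Hochberg over all genes tested, and calls made under 0.05. Errors of log2 changes are SE from the test statistic. Counting intervals are exact 95% binomial (Clopper-Pearson) and, like floors of 3 counts, cover counting error only. Lengths are those of GENCODE v29 principal transcripts (GRCh38). The fit was tested on simulated data. Alternatives included DESeq2 1.42.0 and limma-voom (limma 3.58.1). CCL8 and CCL26, removed by the filter, were fitted in a further model that kept them, chosen after seeing the data. CCL5 and genes without a matching row were left out. All members were named; of each list up to 5 genes with the smallest p in any comparison could be named. The members and lists were chosen with earlier results of these data known.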

Additional observations from a re-analysis of the deposited data

Results flagged for a closer look

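For CCL2 the effect of the hairpin and that of TRi-1 differed by a test of the difference itself, at -1.11 on the log2 scale (adjusted p = 1.38e-07, edgeR). All 3 hairpin libraries lay below all 3 senescent control libraries, and all 3 TRi-1 libraries lay above all 3 DMSO libraries. The 2 controls differed as well, with CCL2 at 369.5 CPM in senescent control and 155 CPM with DMSO. The treated groups stood at 201 CPM with the hairpin and 181 CPM with TRi-1. The difference of effects thus includes the gap between the controls, and effects of DMSO and other differences between them cannot be told apart.

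For CCL20 the same difference was 0.52 on the log2 scale (adjusted p = 0.0126, edgeR). The hairpin and senescent control libraries overlapped, and all 3 TRi-1 libraries lay below all 3 DMSO libraries.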

How the results depend on the processing

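Of the members tested, 3 were called with senescence, 2 with the hairpin, 1 with TRi-1, 1 with DMSO and 2 in the difference of effects. With TRi-1 the count was 2 under limma-voom, upper-quartile scaling, no filter (none higher) and a filter at a mean CPM of 5, and 3 with the compared groups alone, where 5381 genes in all were called against 3176. With the hairpin it was 3 under upper-quartile scaling and no filter and 1 under the filter at 5 CPM, which removes CCL7; with senescence it was 4 under no filter and 2 under the filter at 5 CPM, and with DMSO it was 2 with the compared groups alone. Leaving out each library in turn gave 0 to 1 members with TRi-1, 2 to 3 with the hairpin, 1 with DMSO, 3 with senescence and 2 in the difference. The CCL8 difference of effects, 0.07 on the log2 scale and not called, was -0.135 with limma-voom and ranged from -0.5433 to 0.5772 when libraries were left out. The cause of these changes was not tested, apart from the filter that removes CCL7. Fits with the replicate block called the same numbers of members, 3, 2, 1, 1 and 2, and 2743 genes in all with TRi-1. Deviations from group means correlated at r from -0.623 to 0.623 between same-numbered libraries and from -0.636 to 0.643 between differently numbered ones. Same-numbered libraries thus did not stand out, and the numbers were not taken as pairs. CCL7, CCL8 and CCL26 are limited by depth: they had 0 to 21 counts a library, and the counting interval of CCL26 with TRi-1 ran from 0.928 to 4.29.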
